A study of Mus musculus with 8 samples.

Results

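The receptors of the gamma-chain cytokine family, together with the kinases, the feedback inhibitor and the repressor that are read out downstream of them or act on them, were followed in CD4SP thymocytes. These are T cells that have kept CD4, lost CD8 and are close to leaving the thymus. The set consists of 10 genes, Il7r, Il2rg, Il4ra, Il2rb, Il15ra, Il21r, Pim1, Pim2, Cish and Gfi1, and each gene was represented by its brightest probe set annotated with that symbol alone. Such a probe set was found for 9 of the 10 genes, out of 22180 genes represented in this way, and all 9 passed the intensity filter. Il2rg was listed with no probe set of its own in the annotation used and was not analysed here.

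The cells were sorted from the thymus of C57BL/6 mice of 2 genotypes, 4 arrays of wild type (WT) and 4 labelled Pggt1b_KO (KO below). Pggt1b encodes a subunit of the enzyme that joins geranylgeranyl, a lipid product of mevalonate metabolism, onto certain signalling proteins, and the study asked how this modification bears on the exit of thymocytes from the thymus. The labels name no driver or extent of the deletion and no age or sex of the mice, and do not say whether each array stands for a separate animal, so p-values describe the spread between these arrays, which may be technical. All values below are log2 intensities of Mouse Gene 2.0 ST arrays normalized with RMA, and differences are KO minus WT.

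The common gamma chain joins with ligand-specific chains to form the receptors of a family of interleukins that keep developing and naive T cells alive. Binding of the cytokine activates Janus kinases on the receptor chains, which phosphorylate STAT proteins, above all STAT5 and, for interleukin 4, STAT6. STAT5 induces genes such as Cish, which encodes an inhibitor that feeds back on the receptor, and Pim1, which encodes a serine/threonine kinase that favours survival and growth. In the thymus Il7r is switched off at the double-positive stage and returns in single-positive cells. Gfi1, a zinc-finger repressor, is known in mice as a repressor of Il7r.

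The promoter windows of the 3 genes below are shown because the text sets these STAT-responsive genes side by side, with 1 window in which the STAT motif TTCNNNGAA, searched on both strands, is present as a pair (Cish), 1 in which it is present once (Il7r) and 1 in which it is not found (Pim1). Sequences are from RefSeq, build GRCm38.p6, 250 bases before to 50 bases after an annotated start, read 5′ to 3′ on the gene's strand. Capitals mark the motif.
Cish (chr9:107296409-107296708, plus strand): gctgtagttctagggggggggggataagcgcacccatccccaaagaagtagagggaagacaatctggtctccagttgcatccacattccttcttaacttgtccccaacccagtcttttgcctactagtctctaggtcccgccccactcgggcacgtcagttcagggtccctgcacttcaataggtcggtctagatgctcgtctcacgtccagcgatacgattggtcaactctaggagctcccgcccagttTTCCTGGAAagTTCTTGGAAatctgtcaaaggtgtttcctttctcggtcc
Il7r (chr15:9529827-9530126, minus strand): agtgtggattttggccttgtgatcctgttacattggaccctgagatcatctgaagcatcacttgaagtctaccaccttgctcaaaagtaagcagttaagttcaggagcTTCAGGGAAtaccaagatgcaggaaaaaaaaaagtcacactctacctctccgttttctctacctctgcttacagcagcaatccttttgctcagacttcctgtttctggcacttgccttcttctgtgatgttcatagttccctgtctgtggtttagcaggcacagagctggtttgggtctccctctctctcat
Pim1, upstream window (chr17:29490535-29490834, plus strand): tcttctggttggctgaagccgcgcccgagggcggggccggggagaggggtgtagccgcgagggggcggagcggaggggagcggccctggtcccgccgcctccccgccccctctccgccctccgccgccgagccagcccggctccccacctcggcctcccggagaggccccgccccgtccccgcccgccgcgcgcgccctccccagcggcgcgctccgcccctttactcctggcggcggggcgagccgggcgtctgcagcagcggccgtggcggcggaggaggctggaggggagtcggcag
The Cish window holds 2 copies, TTCCTGGAA from base 251 and TTCTTGGAA from base 262 of the window, separated by a pair of bases and lying just downstream of the start. The Il7r window holds TTCAGGGAA from base 109. Windows were found for 9 of the 10 genes, 12 windows in all, and only these 2 hold the motif. The gene without a window was Il2rb, so its promoter was not searched. Among all 32851 RefSeq windows, 8.3% hold at least 1 copy and 0.46% hold 2 or more. A match describes letters in a window and is no evidence of binding, and its absence from the Pim1 windows concerns these 300 bases alone.

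The CD4SP label was read beside its markers. Cd4, Cd3e and Cd5 stood at 12.23 to 12.50 in the mean of either genotype and Zbtb7b at 8.01 in both. Of the tested markers 0 of 7 changed (limma, with 0 of 7 at an unadjusted p under 0.05). Cd8a and Cd8b1 also lay above the intensity filter, at means of 9.48 and 10.59 in WT and 8.75 and 10.46 in KO. These levels cannot tell how pure the sorted cells were, which was not tested. Pggt1b read 8.35, 8.38, 8.29 and 8.36 across WT arrays against 7.89, 7.57, 7.69 and 7.86 across KO arrays, so that every KO array lay below every WT array (log2 difference -0.59 ± 0.072 SE, limma, Benjamini-Hochberg adjusted p = 0.00141). Of 11585 genes tested across the table, 13.0% changed at an adjusted p under 0.05, 4.45% higher and 8.53% lower in KO, and the split between higher and lower depended on the scaling. The mean of Hspa1a and Hspa1b, heat-shock genes that respond to handling of cells, spanned 5.27 to 8.58 among WT arrays and 4.57 to 10.34 among KO arrays, highest in KO replicates 1 and 2 (10.34 and 9.79). Neither gene was called, but Jun, an immediate-early gene on the same handling list, rose 1.88-fold in KO (9.02 to 9.92 in the means, limma adjusted p = 0.0288), the only one of 6 tested that changed. The part of handling in the results below was not tested beyond the fits with the heat-shock level.

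Of the 9 genes measured, Pim1 rose, Il2rb and Gfi1 fell, and Il7r, Il4ra, Il15ra, Il21r, Pim2 and Cish did not pass the test. That is 1 of 9 higher beside 4.45% of all genes and 2 of 9 lower beside 8.53%. The same 3 genes had arrays that did not overlap between genotypes, beside 20.3% of all genes tested. The median difference over the 9 genes was 0.02, against -0.03 over all genes tested. In build GRCm38.p6 the RefSeq genes lie at chr17:29490785-29496111 (Pim1), chr15:78479256-78511621 (Il2rb) and chr5:107716655-107725805 (Gfi1), and a probe set reads the gene's transcript without telling isoforms apart. These counts are a description, since the genes were chosen with earlier results of these data known.

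**Figure D1:**
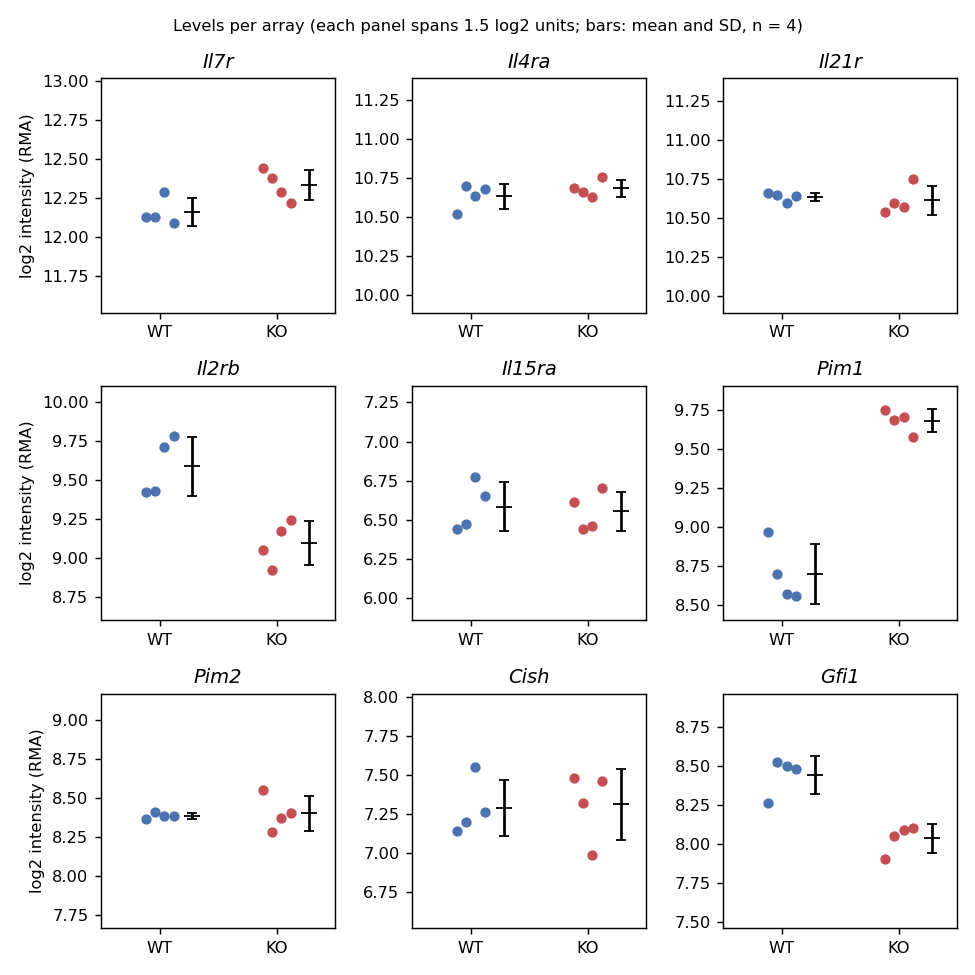
Log2 intensity of the 9 measured genes in each of the 4 WT (blue) and 4 KO (red) arrays, with the mean and SD of each genotype beside the points. The arrays of the genotypes are apart for Pim1, Il2rb and Gfi1 and overlap for the other genes.

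Among the receptor chains Il2rb was the one that changed. Il2rb encodes the beta chain shared by the receptors for interleukin 2 and interleukin 15 and is prominent on regulatory T cells, memory-like CD8 T cells and natural killer T cells. WT arrays read 9.42, 9.43, 9.71 and 9.78 for it, and KO arrays read 9.05, 8.92, 9.17 and 9.24. Every KO array lay below every WT array, and the nearest were 9.24 and 9.42. Il2rb fell from 9.59 ± 0.19 to 9.10 ± 0.14 (SD, n = 4 per genotype), 1.40-fold (log2 -0.49 ± 0.10 SE, limma adjusted p = 0.0138), and 338 of the genes tested differed by more. Leaving out any single array kept the call, with an adjusted p of up to 0.0425, but without KO replicates 1 and 2 the difference was -0.38 and the adjusted p 0.138. In such sorted bulk samples, fewer cells that carry a transcript and less of it per cell cannot be told apart.

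Markers of cell types that carry Il2rb were read beside it. For comparison, 8.53% of all genes tested fell. In the list for natural killer T and innate-like T cells, 3 of 6 tested markers fell, Zbtb16, the transcription factor that defines these cells, 1.61-fold, the chemokine Xcl1 1.54-fold and the granule protein gene Nkg7 1.78-fold, and the other 3, Tbx21, Ccl5 and Cxcr3, stood between -0.37 and -0.26 and were not called. Averaged over its 10 markers with a probe set, this list stood at 5.75, 5.98, 5.90 and 6.26 in WT and at 5.69, 5.58, 5.63 and 5.65 in KO. All KO means lay below all WT means. Of single genes tested, 20.3% had arrays that did not overlap, in either direction. Among the 10 markers 4, Klrb1c, Klrk1, Cd160 and Gzma, were below the intensity filter. In the CD8 list Cd8a, Crtam and Nkg7 fell among 6 tested (list means 8.06 to 8.42 in WT and 7.63 to 7.87 in KO). Runx3, Cd8b1 and Eomes stood at -0.20, -0.13 and -0.01 and were not called. Nkg7 is in both of these lists, and Cd8a is also among the double-positive markers, so the lists are not independent. In the regulatory T cell list Tnfrsf18 and Capg fell among 8 tested (7.81 to 8.04 in WT and 7.67 to 7.86 in KO, which overlap), with a median difference of -0.27. Of those not called, Ikzf2, Ctla4, Lrrc32 and Il2ra stood between -0.30 and -0.13. Nrp1 stood 0.13 higher, and Foxp3, the factor that defines that lineage, 0.17 higher (adjusted p = 0.505). The part of these cells in the Il2rb result was not tested.

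Il7r, the interleukin 7 receptor alpha chain on which survival of single-positive thymocytes depends, was bright in every array. It stood at 12.13, 12.13, 12.29 and 12.09 in WT and at 12.44, 12.38, 12.29 and 12.22 in KO. KO replicates 1 and 2 were the highest of all 8 arrays, and KO replicates 3 and 4 reached down into the WT range. The difference of 0.17 ± 0.065 SE did not pass the test (adjusted p = 0.110), and its 95% interval ran from 0.03 to 0.32 without adjustment for the number of genes. Without KO replicates 1 and 2 it was 0.10 (adjusted p = 0.512), and with an intensity trend and a robust prior it passed (adjusted p = 0.0425).

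Il4ra, the chain that binds interleukin 4, was at 10.52, 10.70, 10.64 and 10.68 in WT and at 10.69, 10.66, 10.63 and 10.76 in KO, and these overlapped (difference 0.05, 95% interval -0.08 to 0.18, limma adjusted p = 0.608). Il21r, which binds its cytokine as the ligand-specific chain, spanned 10.60 to 10.66 among WT and 10.54 to 10.75 among KO arrays, with KO replicate 4 above all other arrays (difference -0.02, interval -0.15 to 0.10). Il15ra, which binds interleukin 15 and presents it to neighbouring cells, spanned 6.44 to 6.77 among WT and 6.44 to 6.70 among KO arrays (difference -0.03, interval -0.23 to 0.16). In linear terms the intervals of KO over WT ran from 0.949 to 1.13 for Il4ra, from 0.902 to 1.07 for Il21r and from 0.854 to 1.12 for Il15ra. A fall as large as that of Il2rb lay outside each of these intervals.

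**Figure D2:**
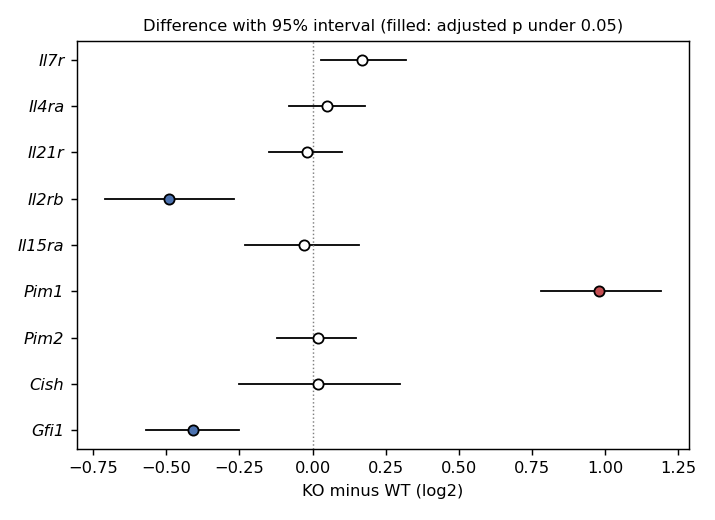
Log2 difference between KO and WT for each measured gene, with the 95% interval of the limma fit (lines), filled points marking an adjusted p under 0.05. Pim1 lies at 0.98, Il2rb at -0.49 and Gfi1 at -0.41, and the other 6 genes lie between -0.03 and 0.17.

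Pim1 was the gene of the set that changed most, and only 31 of the 11585 genes tested differed by more in either direction. The kinase transcript stood at 8.97, 8.70, 8.57 and 8.56 in WT and at 9.75, 9.69, 9.71 and 9.58 in KO. The lowest KO array was 9.58 and the highest WT array, replicate 1, was 8.97. Pim1 rose from 8.70 ± 0.19 to 9.68 ± 0.076 (SD, n = 4 per genotype), 1.98-fold (log2 0.98 ± 0.090 SE, 95% interval 1.72-fold to 2.28-fold, limma adjusted p = 0.000271). It was also called without KO replicates 1 and 2 (0.95, adjusted p = 0.0131). With the heat-shock covariate it stood at 1.02. A dimmer probe set of the gene, at 5.58, 5.37, 5.48 and 5.39 in WT and 5.89, 5.75, 5.83 and 5.77 in KO, rose as well but by less, 1.28-fold (log2 0.36 ± 0.060 SE, adjusted p = 0.00598 over 12182 probe sets). Its WT arrays lay close to the intensity filter of 5.56.

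Pim2, which encodes a kinase of the same family and is likewise induced by cytokines, was at 8.36, 8.41, 8.38 and 8.38 in WT and at 8.55, 8.28, 8.37 and 8.40 in KO. The WT arrays were nearly equal, and KO arrays lay both above and below them. Its difference was 0.02 ± 0.060 SE (95% interval -0.12 to 0.15, limma adjusted p = 0.881).

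Cish, the STAT5-induced feedback inhibitor, was at 7.14, 7.20, 7.55 and 7.26 in WT and at 7.48, 7.32, 6.99 and 7.46 in KO. The highest array was WT replicate 3 and the lowest KO replicate 3. The difference was 0.02 ± 0.12 SE (95% interval -0.25 to 0.30, limma adjusted p = 0.923), and its sign changed with the scaling. A second, dimmer Cish probe set differed by 0.15 (adjusted p = 0.349 over 12182 probe sets). Cish had a wider spread within a genotype than Pim2, with SDs of 0.18 and 0.23 against 0.020 and 0.11. Cish was also read against the heat-shock level of the arrays. KO replicate 3, with the lowest heat-shock mean (4.57), had the lowest Cish level, and among the WT arrays replicate 3 had the highest of both (8.58 and 7.55) and replicate 1 the lowest of both (5.27 and 7.14). With that level as a covariate the genotype difference was -0.11 (adjusted p = 0.407).

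**Figure D3:**
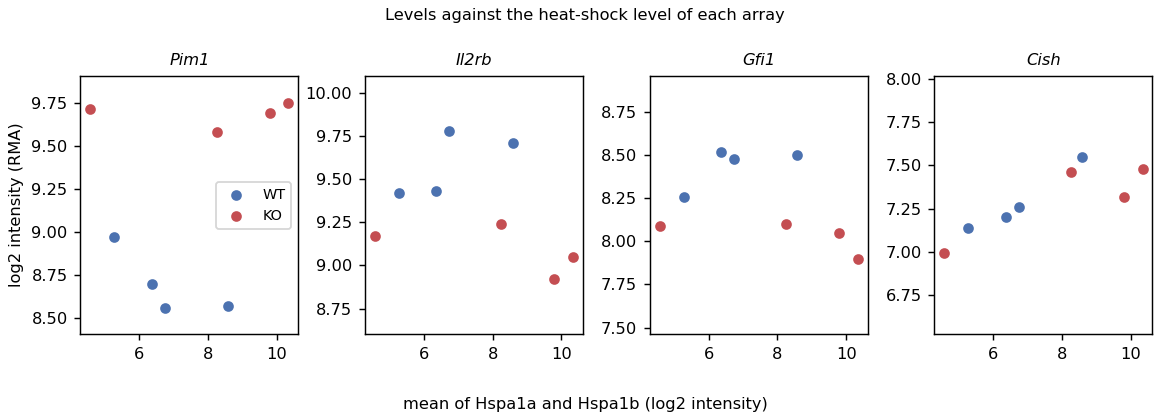
Log2 intensity of Pim1, Il2rb, Gfi1 and Cish in each WT (blue) and KO (red) array against the mean log2 intensity of Hspa1a and Hspa1b in that array. Pim1 lies between 9.58 and 9.75 in KO over heat-shock means of 4.57 to 10.34. In WT it is highest, 8.97, in the WT array with the lowest heat-shock mean, 5.27. Cish is lowest, 6.99, in the array with the lowest heat-shock mean and highest, 7.55, in WT replicate 3, at a mean of 8.58.

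The unequal response of these genes was tested within arrays, for 3 pairs chosen with earlier results known. The log2 difference between Pim1 and Pim2 was 0.18 to 0.61 in the WT arrays and 1.17 to 1.41 in the KO arrays, so the Pim1 change exceeded that of Pim2 by 0.97 (two-sided exact permutation p = 0.0286, the smallest that 4 against 4 arrays allow). The Pim1 change exceeded that of Cish by 0.96, with arrays at 1.02 to 1.83 in WT and 2.11 to 2.73 in KO. The Il2rb change minus the Il7r change was -0.66, with arrays at -2.71 to -2.31 in WT and -3.46 to -2.98 in KO. Each of the 3 pairs had the same exact permutation p and, adjusted over the 3 pairs, 0.0286. With any single array left out, the exact permutation p of each pair was 0.0571, the smallest possible there. Because the pairs were chosen with results known, these p-values are descriptive. A further intended pair, Il2rb with Il2rg, could not be measured. Such differences show unequal change and set no level of 1 gene against another.

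**Figure D4:**
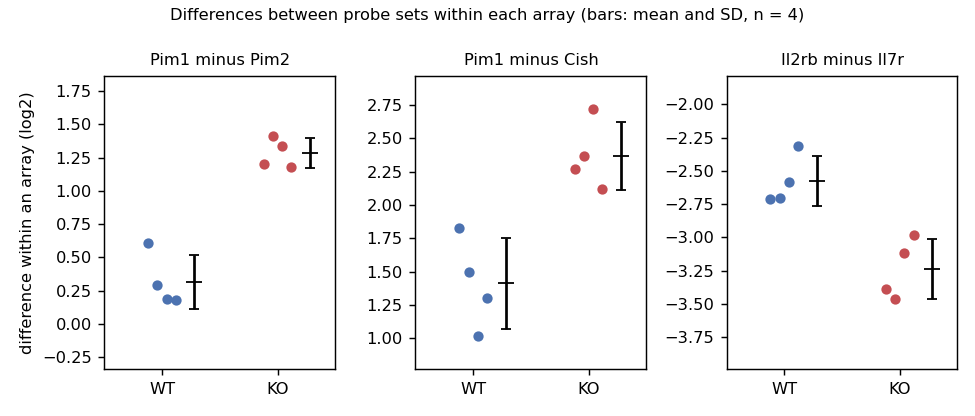
Difference between the log2 intensities of 2 genes within each WT (blue) and KO (red) array, with the mean and SD of each genotype. Pim1 minus Pim2 spans 0.18 to 0.61 among WT and 1.17 to 1.41 among KO arrays, and no pair overlaps between the genotypes.

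Gfi1, the repressor that acts in thymocyte development, was at 8.26, 8.52, 8.50 and 8.48 in WT and at 7.90, 8.05, 8.09 and 8.10 in KO. Every KO array lay below every WT array, with WT replicate 1 the nearest. The mean fell from 8.44 ± 0.12 to 8.03 ± 0.093 (SD, 4 arrays each), 1.33-fold (log2 -0.41 ± 0.072 SE, limma adjusted p = 0.00755). Leaving out any single array kept the call (adjusted p up to 0.0255), and without KO replicates 1 and 2 it was -0.35 with an adjusted p of 0.0872. Double-positive markers, which come from the stage before, stood beside it at list means of 8.08 to 8.37 in WT and 7.75 to 8.11 in KO. Cd8a was the only one of 7 tested that was called, as lower, beside 8.53% of all genes tested. The others stood between -0.30 (Dntt) and -0.03 (Ptcra) and were not called, and the list median was -0.18. The part of double-positive cells in the Gfi1 result was not tested.

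The profiles most like those of 3 genes were found over the 8 arrays, as the smallest root mean square difference of log2 profiles centred on their own means. For Pim1 they were Tmem71 (0.059), Slc17a9, a vesicular nucleotide transporter (0.094), and Klf6, a zinc-finger factor of the Krüppel-like family (0.13), which rose by 0.94, 0.88 and 1.06. For Il2rb they were Tnfsf11, the gene of the cytokine RANKL (0.043), Plekho1 (0.055) and Cmpk2 (0.068), lower by a log2 difference of -0.47, -0.48 and -0.46 with adjusted p of 0.00938, 0.0108 and 0.0233 (limma). For Il7r they were Calcrl (0.037), Btbd6 (0.040) and Smim22 (0.040), none of which passed the test. The measure follows the size of the change, so genes with a like difference between genotypes come first.

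The wider pathway was read from 7 lists of 80 further genes, of which 64 were tested, 12 lay below the filter and 4 were not analysed here. In all 3 rose and 8 fell, beside 4.45% and 8.53% of all genes tested, and the median difference of the 64 was -0.03, as over all genes. Of the 8 falls 4 were in the list of cytokine-responsive genes, and the cytokine list and the list of kinases and STATs held no call.

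Of 6 tested receptor chains outside the set, 1 rose and 1 fell, beside 4.45% and 8.53% of all genes tested, with a median of -0.10. Il6ra, the alpha chain of the interleukin 6 receptor, stood at 10.44 to 10.51 in WT and at 10.89 to 11.08 in KO and rose 1.44-fold (log2 0.53 ± 0.053 SE, limma adjusted p = 0.000447). Crlf2, which pairs with Il7r to form the receptor for the cytokine TSLP, stood at 8.67 to 8.75 in WT and at 8.31 to 8.54 in KO and fell 1.22-fold (log2 -0.28 ± 0.058 SE, adjusted p = 0.0137). Its adjusted p was 0.126 without KO replicates 1 and 2. Il2ra, the alpha chain that completes the high-affinity interleukin 2 receptor, differed by -0.13 (adjusted p = 0.476). It was -0.03 without WT replicate 4, -0.06 without KO replicate 1 and -0.23 with the number in the sample titles as a covariate, where it was called (adjusted p = 0.0404). Il6st, the signalling chain for interleukin 6, and Ifngr1, a chain of the interferon gamma receptor, differed by -0.10 and -0.11 and were not called.

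The ligands themselves were mostly dim in these cells. Of 8 cytokine genes 6, Il2, Il4, Il7, Il9, Il15 and Tslp, lay below the filter. Il21 and Il13 were tested at means near 6 and stood 0.18 and 0.17 higher, with adjusted p of 0.0926 and 0.340. The Il13 difference was 0.07 without KO replicate 2 and 0.27 without KO replicate 1. Neither was called by limma, and 1 of the 2 had an unadjusted p under 0.05.

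No kinase or STAT gene among 8 tested changed, beside 13.0% of all genes tested (limma, 1 of 8 at an unadjusted p under 0.05, median -0.05). Stat5a stood at 8.73 to 8.80 in WT and at 8.50 to 8.69 in KO, a difference of -0.15 with an adjusted p of 0.0897. Jak1, the kinase bound to the ligand-specific chains, differed by 0.10 (adjusted p = 0.199) and Jak2 by -0.11 (adjusted p = 0.246). The arrays of Stat5a and Jak1 did not overlap between genotypes, 2 of 8 beside 20.3% of all genes tested.

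Of 15 tested negative regulators 1 fell, beside 8.53% of all genes tested. The gene that fell was Socs7, of the same inhibitor family as Cish, 1.16-fold lower (log2 -0.21 ± 0.056 SE, limma adjusted p = 0.0363). Its call was lost when WT replicate 2, 3 or 4, or KO replicate 2, 3 or 4, was left out (adjusted p from 0.0685 to 0.0815) and without KO replicates 1 and 2 (0.144). It was also lost with no intensity filter (0.0807), a second quantile normalization (0.0596), tested-gene centring (0.0771), an intensity trend and robust prior (0.0528), the title number as a covariate (0.0515) and the heat-shock covariate (0.0818). Socs1, a further inhibitor induced by cytokines, spanned 8.38 to 8.98 among WT and 8.13 to 8.45 among KO arrays and was not called (difference -0.32, adjusted p = 0.125). Pias3 and Pias1, which encode inhibitors of activated STATs, differed by 0.14 and 0.09 (adjusted p = 0.0981 and 0.191). Pias3 was called after a second quantile normalization (0.0406) and without WT replicate 1 (0.0495).

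Of 12 tested genes outside the set that are known to respond to STAT5 or to cytokines, 4 fell and 0 rose. All genes tested gave 8.53% lower and 4.45% higher. The median of the list was -0.09 against -0.03 over all genes. Pim1, which rose, and Pim2 and Cish, which were not called, belong to the set and are not counted here. Tnfrsf4, which encodes the costimulatory receptor OX40, fell 1.40-fold from 9.96 to 10.13 in WT to 9.31 to 9.67 in KO (log2 -0.49 ± 0.080 SE, limma adjusted p = 0.00548). Bcl6, a repressor that STAT5 is known to silence, fell 1.31-fold, Id2, an inhibitor of E proteins, 1.29-fold, and Ccnd2, which encodes cyclin D2, 1.18-fold (adjusted p = 0.0186, 0.0247 and 0.0483). The list holds falls both of genes that STAT5 is known to induce and of one that it represses. STAT5 activity was not measured, and its part in these changes was not tested. The survival genes Bcl2 and Bcl2l1 differed by 0.12 and -0.27 and were not called (adjusted p = 0.136 and 0.0691), and Lta, which encodes lymphotoxin alpha, differed by -0.19 (adjusted p = 0.0925).

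The calls in that list were not equally firm. Tnfrsf4 was called under every alternative tried. That of Bcl6 ended without WT replicate 2 (adjusted p = 0.0504) and with the heat-shock covariate (0.0504). That of Id2 was lost when WT replicate 3 or 4, or KO replicate 1, 2 or 3, was omitted (adjusted p up to 0.0644), and with tested-gene centring (0.05). The call of Ccnd2 was lost when WT replicate 2, 3 or 4, or KO replicate 1, 2 or 3, was omitted (adjusted p up to 0.113), and with no intensity filter (0.0948), the heat-shock covariate (0.0914) or tested-gene centring (0.11). Without KO replicates 1 and 2 the adjusted p was 0.088 for Bcl6, 0.162 for Id2 and 0.267 for Ccnd2. Conversely, Bcl2l1 was called with array weights (0.0492), with the title number as a covariate (0.0287) and without WT replicate 1 (0.022), Lta without KO replicate 4 (0.035), and Bcl2 with an intensity trend and robust prior (0.0383).

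Of 11 tested factors reported to act on Il7r, 1 rose and 1 fell, beside 4.45% and 8.53% of all genes tested, with a median of 0.0016. Klf2, a factor that promotes expression of exit receptors in mature thymocytes, stood at 9.77 to 10.15 in WT and at 10.42 to 10.67 in KO and rose 1.60-fold (log2 0.68 ± 0.091 SE, limma adjusted p = 0.00206). Gata3, a factor that acts in the CD4 lineage among others, fell 1.20-fold (log2 -0.26 ± 0.054 SE, adjusted p = 0.0144, or 0.144 without KO replicates 1 and 2). Runx3, Foxp1 and Runx1 differed by -0.20, 0.12 and -0.12 and were not called.

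Of 10 tested partners and substrates of PIM kinases and GFI1, 1 rose and 1 fell, with a median of -0.08. All genes tested gave 4.45% higher and 8.53% lower. Cdc25a, a phosphatase of the cell cycle that PIM1 phosphorylates, stood at 9.18 to 9.34 in WT and at 8.74 to 8.93 in KO and fell 1.34-fold (log2 -0.42 ± 0.061 SE, limma adjusted p = 0.00299). Cdkn1b, which encodes the cell cycle inhibitor p27, stood at 10.09 to 10.21 in WT and at 10.38 to 10.55 in KO and rose 1.22-fold (log2 0.28 ± 0.054 SE, adjusted p = 0.0104, or 0.0934 without KO replicates 1 and 2). Zbtb17, which encodes the GFI1 partner MIZ1, and the chromatin enzymes Kdm1a and Ehmt2 differed by -0.13, -0.10 and -0.11 and were not called.

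**Figure D5:**
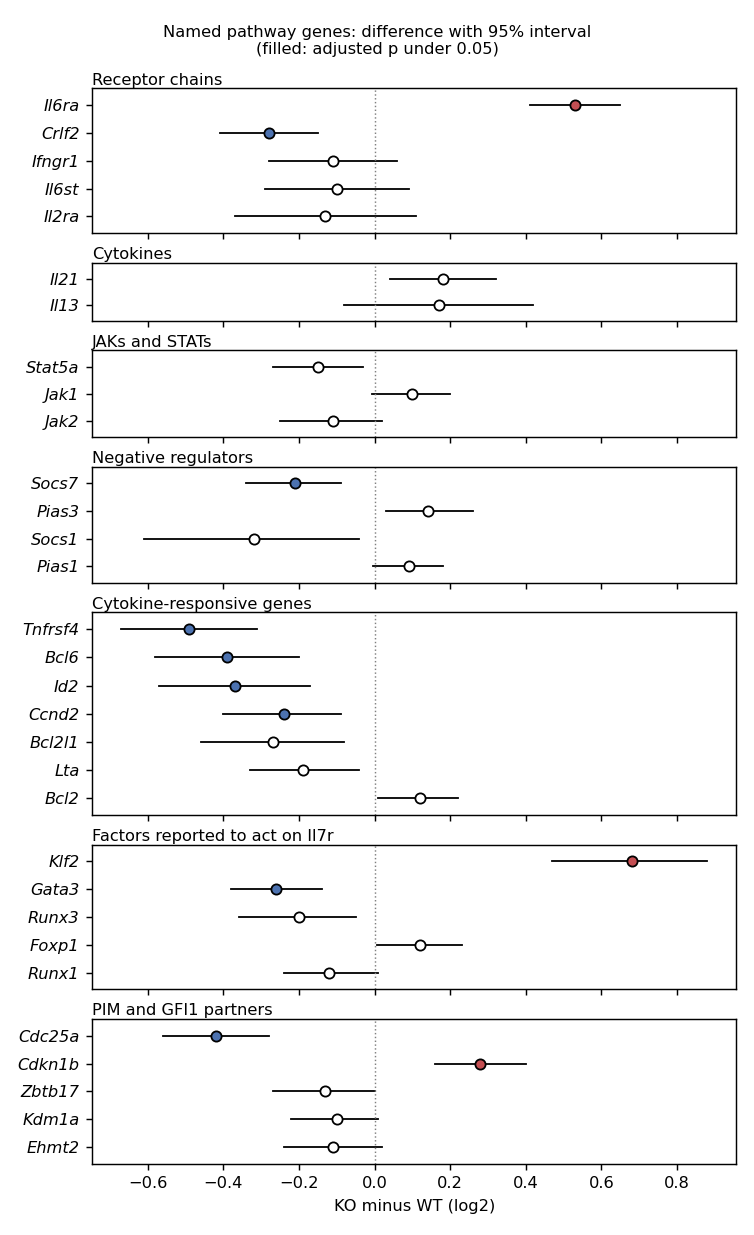
Difference of the named pathway genes, KO minus WT on the log2 scale, by list, with 95% intervals of the limma fit (lines) and filled points for an adjusted p under 0.05 (red higher, blue lower in KO). Klf2, Il6ra and Cdkn1b are the 3 that rose, and the 4 falls of the cytokine-responsive list lie between -0.49 and -0.24.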

How the data were processed

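The 8 arrays, 4 of each genotype, were deposited by the authors as log2 intensities of 41345 probe sets, which per the submitters' processing notes were made with RMA (Affymetrix Expression Console 1.1). Per the labels' protocols, small amounts of total RNA were amplified and biotinylated with NuGEN kits before hybridization. Array medians lay between 5.52 and 5.59, and precision is limited by having 4 arrays per genotype.

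GEO's platform annotation listed 23521 probe sets with 1 gene symbol, 1814 with several and 16010 not at all, and symbols may be old. The brightest single-symbol probe set over all arrays stood for each of 22180 genes. The 11585 genes with a mean of at least 5.56, the median of all probe sets' means, were tested by limma 3.58.1 under R 4.3.3 (moderated by eBayes, Benjamini-Hochberg adjustment over all of them, threshold 0.05), and the fit was tested on simulated data. Pairs of genes were compared within arrays by exact permutation of the genotype (Python 3.11.15, scipy 1.17.1). Replicates were numbered in accession order, and the numbers pair nothing. No 2 arrays were identical, and Pearson correlation was 0.990 to 0.995 within and 0.985 to 0.990 between genotypes. Named were all 10 genes of the set, Pggt1b, and in each pathway list every gene that passed plus up to 3 that did not, by smallest p, and the 3 profiles nearest to Pim1, Il7r and Il2rb (predicted genes, small RNAs and receptor segments left out). Alternatives changed the filter, the scaling, the probe set, the variance model, the covariates, the threshold and the arrays included. The members, pairs and lists were chosen with earlier results of these data known. Il2rg was not analysed here.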

Additional observations from a re-analysis of the deposited data

Results flagged for a closer look

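In 5 of 82 groups of 4 arrays examined, 1 array stood apart from the other 3 by a gap that is large for the group's range (Dixon's test, 95% critical value), where chance gives about 1 group in 20. Gfi1 stood at 8.26 in WT replicate 1 and at 8.48 to 8.52 in the other WT arrays, which brings that array nearest to the KO arrays. Il6st stood at 11.21 in WT replicate 4 and at 11.49 to 11.51 in the others. Ccnd2 stood at 11.74 in KO replicate 4 and at 11.58 to 11.61 in the others. Bcl2 stood at 11.98 in KO replicate 3 and at 12.05 to 12.07 in the others. Cdkn1b stood at 10.55 in KO replicate 1 and at 10.38 to 10.41 in the others. The flags fell on 5 different arrays.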

How the results depend on the processing

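The count of genes called changed, 1503 as reported, was 920 with no intensity filter, 874 with the heat-shock covariate, 446 at an adjusted p under 0.01, 258 without KO replicates 1 and 2, and 813 to 1441 when single arrays were left out. Of the 9 genes measured, 3 were called as reported, and only Pim1 was called without KO replicates 1 and 2, a setting with fewer samples. At an adjusted p under 0.01 Pim1 and Gfi1 were called and Il2rb was not. The share of calls that were higher in KO was 34.3% as reported, 49.5% after a second quantile normalization, 22.5% with arrays centred on their median, and 58.3% with arrays centred on the median of the tested genes, an alternative chosen after seeing the data. Differences near 0 changed sign. Il15ra became 0.0055 after a second quantile normalization and 0.02 with tested-gene centring, and ran from -0.08 to 0.03 when single arrays were left out. Il21r became 0.02 with tested-gene centring and 0.02 without KO replicates 1 and 2, and ran from -0.07 to 0.0033. Pim2 became -0.02 with median centring and ran from -0.03 to 0.06. Cish became -0.01 with median centring, -0.02 with array weights, -0.11 with the heat-shock covariate and -0.06 without KO replicates 1 and 2, and ran from -0.03 to 0.13. The cause of these shifts was not tested. Averaging the probe sets of each gene, the Pim1 difference was 0.67, Pim1 against Pim2 was 0.65 and Pim1 against Cish was 0.59. No paired analysis was possible because the arrays of the genotypes share no replicate numbers in the labels. The test of Il2rb against Il2rg could not be made.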

Other observations

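In WT replicate 1 all 3 genes of the set that were called stood nearest to the KO arrays, an observation made after the values were seen. Pim1 stood there at 8.97 against 8.56 to 8.70 in the other WT arrays, Gfi1 at 8.26 against 8.48 to 8.52, and Il2rb at 9.42 against 9.43 to 9.78. The called pathway genes were mixed: that array was the WT array nearest to KO for Klf2, Cdc25a, Socs7 and Ccnd2, and the farthest for Tnfrsf4, Il6ra and Cdkn1b. Without this array the Pim1 difference was 1.07 and the Gfi1 difference -0.47.

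Ighm, the immunoglobulin heavy chain gene on the B cell list, rose 1.60-fold (log2 0.68, limma adjusted p = 0.000122), with 10.86 to 11.02 in WT and 11.54 to 11.70 in KO. The B cell genes Cd79a, Ms4a1, Pax5 and Blk were below the intensity filter, and Cd79b differed by 0.05 (adjusted p = 0.832).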
